A study of Mus musculus with 7 samples.

Results

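Major histocompatibility complex (MHC) class I genes and the genes that load peptide onto their products were examined in SiglecF-positive cells, labelled eosinophils, sorted from injured mouse muscle. The 10 genes were taken by symbol from a table of 24421 genes: the classical heavy chains H2-K1 and H2-D1, the heavy chains H2-Q4, H2-Q6, H2-Q7, H2-T22 and H2-T23 of the non-classical Q and T regions, the light chain B2m, and the peptide loading genes Tap1 and Tapbp. All 10 had a row, 8 passed the filter on low counts together with 12428 genes in all, and H2-Q6 and H2-Q7 were listed at 0 in every library. RNA sequencing compared 3 WT libraries with 4 libraries of mice labelled IL5-Tg, a genotype named for the cytokine IL-5, which drives the production and survival of eosinophils. Both groups were muscle taken 3 days after ntx, a term the labels do not spell out, and both were sorted as CD45-positive, SiglecF-positive cells negative for NK1, Ly6G and CD3e, within a CD11b gate. The study concerned the effect of an excess of eosinophils on muscle homeostasis, regeneration and repair. The labels used here do not give the strain, age or sex of the mice, the promoter of the transgene, or whether each library came from a separate mouse, so the spread that p-values measure is that between libraries, which may be technical.

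A class I molecule is a heavy chain paired with the light chain B2m, and it shows a short peptide from inside the cell to CD8 T cells and NK cells. Peptides are cut mainly by the proteasome, pumped into the endoplasmic reticulum by the transporter of Tap1 and Tap2, and fitted into the groove with the help of tapasin, the product of Tapbp. The transcription factors NLRC5, NF-kappaB and, under interferon, IRF1 act on the promoters of these genes. Nearly all nucleated cells carry class I, eosinophils included.

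The promoters of a classical heavy chain, of H2-Q4 and of the light chain are shown because the results below set these genes against each other, and because they hold elements for which class I transcription is best known. Each is the 250 bases before the RefSeq start (build GRCm38.p6), written 5′ to 3′ on the gene's strand, with 4 motifs in capitals: GGGGATTCCCC (an NF-kappaB site), AGTTTCACTTC (an interferon response element), TGACG (the core of a cAMP response element) and CCAAT. Both strands were searched, so CCAAT can appear as ATTGG, and no motif overlaps another in these windows.
H2-K1, chr17:34000348-34000597, minus strand: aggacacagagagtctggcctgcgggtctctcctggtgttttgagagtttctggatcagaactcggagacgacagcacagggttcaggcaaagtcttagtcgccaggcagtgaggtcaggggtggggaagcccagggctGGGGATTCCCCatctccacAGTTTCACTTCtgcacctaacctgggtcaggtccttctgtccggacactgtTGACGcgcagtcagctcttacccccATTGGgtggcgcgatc
H2-Q4, chr17:35379367-35379616, plus strand: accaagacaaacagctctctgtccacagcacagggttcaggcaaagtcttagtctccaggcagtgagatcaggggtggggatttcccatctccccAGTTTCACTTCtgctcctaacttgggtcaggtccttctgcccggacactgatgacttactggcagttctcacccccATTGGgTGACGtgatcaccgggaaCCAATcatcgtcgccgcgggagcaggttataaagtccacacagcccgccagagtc
B2m, chr2:122147437-122147686, plus strand: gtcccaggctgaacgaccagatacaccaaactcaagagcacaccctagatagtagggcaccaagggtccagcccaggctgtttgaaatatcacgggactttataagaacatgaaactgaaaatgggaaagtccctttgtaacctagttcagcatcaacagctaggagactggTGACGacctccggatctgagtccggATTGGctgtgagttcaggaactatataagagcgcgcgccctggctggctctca

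All 10 genes had a promoter in the RefSeq table. CCAAT was in 10 of the 10 windows, against 33.8% of 32851 promoter windows of 27025 genes. TGACG was in 7 of the 10, against 17.8% of all windows. AGTTTCACTTC was in 5 of the 10, those of H2-K1, H2-D1, H2-Q4, H2-Q6 and H2-Q7, and in 0.0426% of all windows. GGGGATTCCCC was in 3, those of H2-K1, H2-D1 and H2-Q6, and in 0.0304% of all windows. Only exact letters were searched, so a window without a motif may hold a close variant, such as ggggatttccc in H2-Q4. The letters of the longer motifs were read from the H2-K1 promoter, and the heavy chain genes are copies of one another, so these shares describe the family and are no test.

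The libraries held 11581365 to 20231509 counts, of which 9665093 to 17447106 were assigned to genes. Il5 checked the labels: its level in CPM (counts scaled to a common library size) was 338 to 447 in the IL5-Tg group, against 1.39, 0 and 0 in the WT group. The cell label was checked against 8 eosinophil markers, none of them at 0 in all libraries. Their summed level was 3917 to 7569 CPM in WT and 5218 to 10062 CPM in IL5-Tg libraries. Without the most abundant, Alox15, the sums were 1480 to 2909 and 1946 to 3952 CPM. On average 6 of the 8 were higher in IL5-Tg libraries, and 2, Ccr3 and Il5ra, were lower. Groups did not overlap for Prg2 and Epx. Prg2 had means of 120 CPM in WT and 815 CPM in IL5-Tg libraries (by edgeR, adjusted p = 0.0160, and 0.00541 to 0.120 with each library left out). Fibroblast markers summed to only 204 CPM in WT replicate 3, whereas the other libraries of both groups had 2232 to 5159 CPM. Macrophage and monocyte markers summed to 3720 to 5267 and 4848 to 5818 CPM in the WT and IL5-Tg groups. Without the most abundant of them, Adgre1, the sums were 1351 to 3851 and 2612 to 4227 CPM. Adgre1 was highest in WT replicate 3, at 2459 CPM. C1qa, C1qb and Cd68 were lowest in that library, at 68.4, 99.8 and 109 CPM, and C1qa was at 350 to 776 CPM in the others. In WT and IL5-Tg libraries the summed markers of dendritic cells were at 135 to 159 and 159 to 782 CPM, and those of endothelium at 180 to 220 and 156 to 308 CPM. Summed markers of T cells, B cells and NK cells stayed at or below 8.79 CPM in every library, with the B cell factor gene Pax5 at 0 reads throughout. Many of these cell types carry class I, and in bulk RNA fewer cells of a type and less RNA per cell cannot be told apart. Low counts did not have the same precision in both groups: the value most often found among them was 5, 8 and 12 reads in WT and 1, 1, 1 and 4 reads in IL5-Tg libraries.

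H2-Q4 was the only member called, and it was lower in IL5-Tg libraries. Of the 8 tested members, 1 was called lower and 0 higher, against 0.0724% of all tested genes called lower and 0.41% called in either direction. A call is an adjusted p under 0.05 from edgeR's quasi-likelihood test over all 12428 genes, and a log2 fold change below 0 means lower in IL5-Tg. The other 7 tested members had overlapping groups and did not pass, which does not show that they were unchanged. Over the 8 members the median log2 fold change was -0.44, and over all tested genes it was 0.03. A log2 fold change below 0 was found for 7 of the 8, against 47.9% of all tested genes, but the signs of H2-T22, H2-T23 and Tap1 turned in some other settings.

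**Figure D1:**
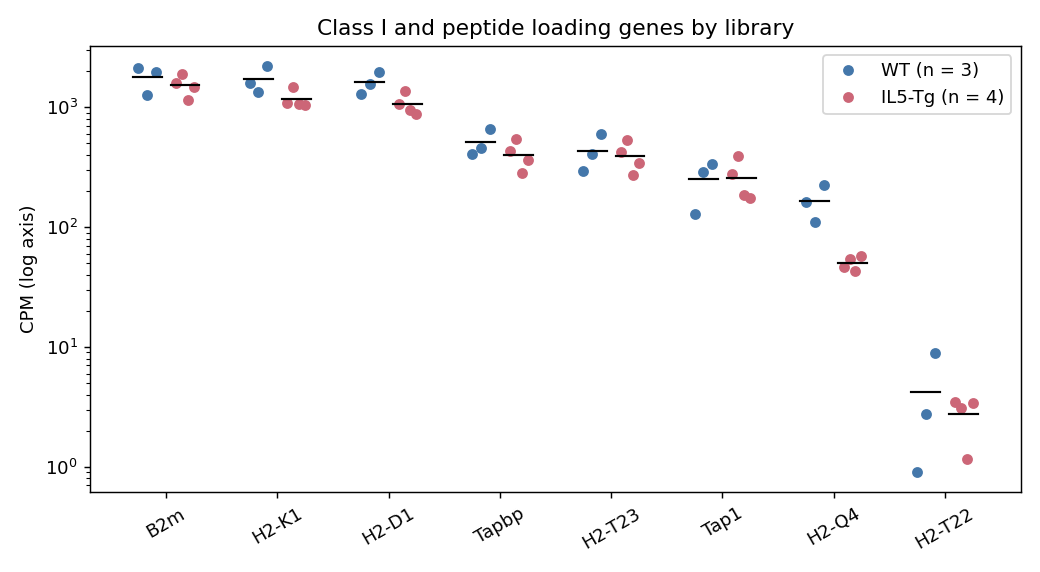
Level of the 8 tested members in each library, in CPM on a log axis, with 1 point per library and a bar at the group mean (blue WT, n = 3; red IL5-Tg, n = 4). The groups of H2-Q4 lie apart, at 110 to 225 and 43.1 to 57.4 CPM, and those of the other members overlap.

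The light chain and the classical heavy chains were the most abundant members. Per kilobase of the longest coding transcript in GENCODE M21, B2m stood at a mean level of 2085 CPM in WT and 1797 in IL5-Tg libraries. H2-K1 followed at 1060 and 722 CPM per kilobase, and H2-D1 at 769 and 507. H2-T23 and Tapbp came next, at 295 and 176 CPM per kilobase in WT libraries. H2-Q4 was at 92.5 in WT and 28.0 in IL5-Tg libraries, and Tap1 at 85.1 and 86.8, so H2-Q4 stood just above Tap1 in WT and below it in IL5-Tg libraries. H2-T22 was the lowest of the tested members, at 2.39 and 1.57 CPM per kilobase. Over the WT libraries the ranges of neighbours in this order overlapped for H2-K1 and H2-D1, for H2-T23 and Tapbp, and for Tap1 and H2-Q4, whereas those of B2m and H2-K1 did not.

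Among the classical heavy chains, H2-K1, which encodes the K molecule, lies far from H2-D1 in the complex. H2-K1 is on chromosome 17 at 33996017 to 34000347 on the minus strand, and H2-D1 at 35262730 to 35267499 on the opposite strand (GENCODE M21 on mm10). In CPM, H2-K1 was at 1585, 1355 and 2209 in WT (replicates 1, 2 and 3) and at 1089, 1470, 1073 and 1044 in IL5-Tg libraries (replicates 1, 2, 3 and 4), the order used for every gene below. IL5-Tg replicate 2 lay within the WT range and the other IL5-Tg libraries below it. The group means were 1716 ± 442 (SD, n = 3) and 1169 ± 201 CPM (SD, n = 4), and the log2 fold change of -0.55 ± 0.27 (SE) did not pass (by edgeR, adjusted p = 0.592). H2-D1 was at 1300, 1568 and 1981 CPM in WT and at 1069, 1359, 954 and 877 CPM in IL5-Tg libraries. Again only IL5-Tg replicate 2 reached the WT range. Its log2 fold change of -0.60 ± 0.26 (SE) did not pass either (by edgeR, adjusted p = 0.536).

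The Q region lies beyond H2-D1 and encodes non-classical heavy chains, of which H2-Q6 to H2-Q9 make the Qa-2 antigen. H2-Q4, which encodes the Qb-1 molecule, lies on the plus strand of chromosome 17, at 35379617 to 35385290. Its WT level was 163, 110 and 225 CPM, from 2692, 1038 and 2383 reads. It was at 46.1, 54.5, 43.1 and 57.4 CPM in the IL5-Tg libraries, from 492, 709, 592 and 1105 reads. Every IL5-Tg library lay below every WT library, and the IL5-Tg libraries were close together. The means were 166 ± 57.9 (SD, n = 3) and 50.3 ± 6.74 CPM (SD, n = 4). H2-Q4 was 3.30-fold higher in WT, with a log2 fold change of -1.72 ± 0.28 (SE; by edgeR, adjusted p = 0.0306). Groups that do not overlap were found for 1 of the 8 tested members, and for 9.36% of all tested genes, 4.6% with the lower and 4.76% with the higher values in IL5-Tg libraries.

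The call of H2-Q4 did not hold in every setting. Its log2 fold change stayed between -1.93 and -1.41 in all 17 alternative settings. H2-Q4 no longer passed without WT replicate 1 (by edgeR, adjusted p = 0.120), or without IL5-Tg replicate 1, 2, 3 or 4 (by edgeR, adjusted p = 0.187, 0.132, 0.144 and 0.0903). Each of these fits called 1 or 2 genes lower over all tested genes, against 9 with all libraries. Sample titles that start with the same digits gave 2 comparisons inside a title start: 163 CPM in WT against 43.1 in IL5-Tg for titles starting with 82, and 110 against 57.4 for those starting with 86. With the title start as a block the log2 fold change was -1.42 (by edgeR, adjusted p = 0.302). Titles starting with 81 were only IL5-Tg, and the one starting with 87 was WT. The genotype difference in that fit therefore came from WT replicates 1 and 2 and IL5-Tg replicates 3 and 4.

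H2-Q6 and H2-Q7 were listed at 0 in all 7 libraries, as were the rows of H2-Q8 and H2-Q9. By a floor of 3 reads a library, 0 reads allow up to 0.156 to 0.317 CPM of reads assigned to a row, by counting error only. These rows were 4 of the 9 named H2-Q, in a table where 8323 of 24421 genes had no read in any library. Since reads that match more than 1 gene may have been left out of a row, a listed 0 does not show that the RNA was absent.

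How far reads could be told apart was described with words of 42 bases, the read length in the labels, from the longest coding transcript of each gene. A word counted as unique where no transcript of another gene in GENCODE M21 held it on either strand. The share of unique words was 100% for B2m, 93.0% for Tap1, 86.2% for H2-K1, 80.6% for H2-D1 and 77.9% for Tapbp. It was lower in the non-classical heavy chains, at 63.1% for H2-T23, 59.1% for both H2-Q6 and H2-Q7, 53.1% for H2-Q4 and 48.0% for H2-T22. H2-Q4 shared most words with Gm11131, 16.9% of its own, and H2-T22 with H2-T10, 45%. H2-Q8 and H2-Q9 are rows of the table and have no gene of that symbol in GENCODE M21, so words of H2-Q6 or H2-Q7 found in them were not counted as shared. The values of H2-Q4 and H2-T22 are therefore less certain than those of B2m or Tap1.

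Sums over rows do not depend on how reads were divided among them, but any reads left out of every row are missing from them. The 9 rows named H2-Q summed to 193, 136 and 274 CPM in WT and 55.5, 64.3, 51.2 and 67.2 CPM in IL5-Tg libraries. The groups of this sum lay apart, with means of 201 ± 69.1 (SD, n = 3) and 59.5 ± 7.49 CPM (SD, n = 4). H2-Q4 made up most of it, at means of 166 and 50.3 CPM, so this sum is no separate check of H2-Q4. The 6 rows named H2-T summed to 524 ± 211 and 459 ± 149 CPM and overlapped. All 32 class I heavy chain rows summed to 4148 ± 1005 CPM in WT and 2784 ± 544 CPM in IL5-Tg libraries, 0.671 of the WT mean, and also overlapped. No test was made on these sums.

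H2-Q5 and H2-K2, heavy chain rows outside the 10 genes, stood lower in IL5-Tg libraries without passing the test. H2-Q5, a polymorphic pseudogene that starts 14.5 kb beyond the start of H2-Q4, was at 22.3, 12.04 and 47.8 CPM in WT and at 4.50, 5.69, 4.81 and 5.92 CPM in IL5-Tg libraries. Its groups lay apart, and its log2 fold change was -2.39 ± 0.45 (SE; by edgeR, adjusted p = 0.0705). It passed in 5 of 17 alternative settings, among them DESeq2 (adjusted p = 0.000476) and edgeR without WT replicate 2 (adjusted p = 0.0243). Its log2 fold change was smaller with the title start as a block, at -1.62, and without WT replicate 3, at -1.68 (by edgeR, adjusted p = 0.524 and 0.0811). The pseudogene H2-K2, close to H2-K1, was at 118, 13.8 and 79.2 CPM in WT and at 9.28, 11.7, 20.3 and 12.7 CPM in IL5-Tg libraries. WT replicate 2 lay among the IL5-Tg libraries, and the log2 fold change was -2.38 ± 0.60 (SE; by edgeR, adjusted p = 0.215). H2-K2 passed by DESeq2 (adjusted p = 0.00502) and by edgeR without WT replicate 2, at -2.84 (adjusted p = 0.0149). It was at -1.78 without WT replicate 1 and at -1.35 with the title start as a block (by edgeR, adjusted p = 0.361 and 0.982). Of 28 class I heavy chain and class I-like genes outside the 10, these included, 11 were tested and 0 passed, 10 had no read in any library, and the median log2 fold change of those tested was -0.42.

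**Figure D2:**
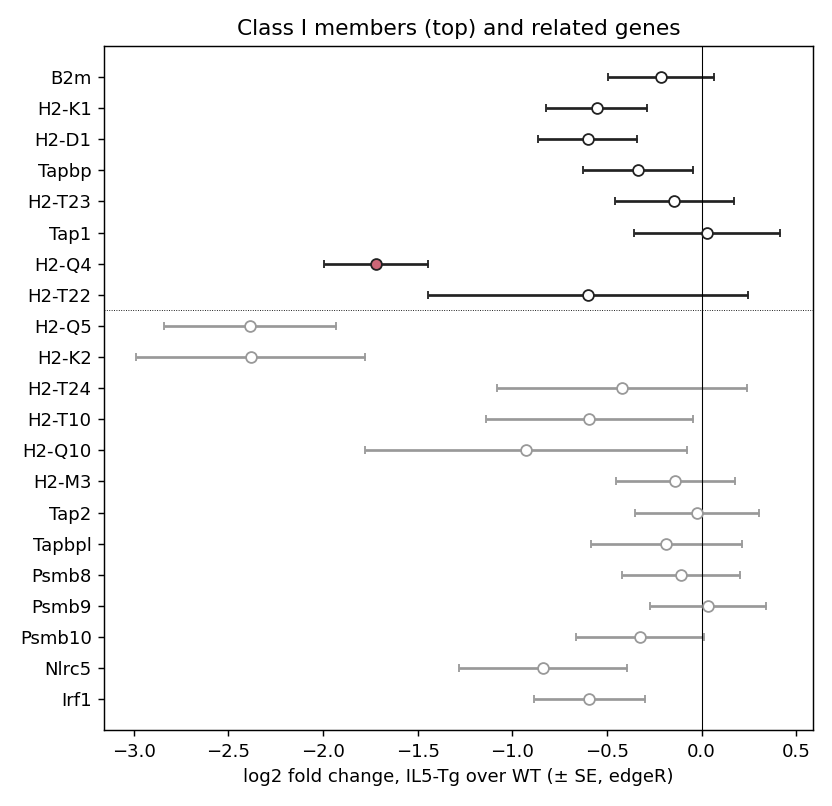
Log2 fold change of IL5-Tg over WT with its SE (edgeR, 3 against 4 libraries) for the 8 tested members above the dotted line and related genes below it. A filled point passed at an adjusted p under 0.05, which H2-Q4 alone did, at -1.72; H2-Q5 and H2-K2 lie further left, at -2.39 and -2.38, with wider errors.

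In the T region, H2-T23 encodes Qa-1, which presents leader peptides of other class I chains to NK cell receptors, and H2-T22 encodes a molecule that some gamma delta T cells recognise. H2-T23 is on chromosome 17 at 36029773 to 36032855 and H2-T22 at 36037128 to 36042747, both on the minus strand. H2-T23 was at 297, 408 and 600 CPM in WT and at 427, 530, 272 and 345 CPM in IL5-Tg libraries. Its groups overlapped, and the log2 fold change was -0.14 ± 0.32 (SE; by edgeR, adjusted p = 0.947). H2-T22 had 15, 26 and 95 reads in WT and 37, 40, 16 and 65 reads in IL5-Tg libraries, or 0.906 to 8.98 CPM over both groups. Its log2 fold change of -0.60 ± 0.85 (SE; by edgeR, adjusted p = 0.916) turned positive, to 0.63, without WT replicate 3, as did that of H2-T23, to 0.18.

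B2m, which lies at 122147686 to 122153083 of chromosome 2 (plus strand), encodes the light chain of class I molecules. It was at 2125, 1282 and 1972 CPM in WT and at 1606, 1917, 1162 and 1495 CPM in IL5-Tg libraries. The groups overlapped, WT replicate 2 and IL5-Tg replicate 3 being the lowest of each, and the log2 fold change was -0.21 ± 0.28 (SE; by edgeR, adjusted p = 0.907).

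Ratios within the class I genes set heavy chains against each other without library sizes. H2-Q4 took 4.86%, 3.18% and 4.48% of the reads of the 7 member heavy chains in WT libraries, and 1.75%, 1.59%, 1.84% and 2.47% in IL5-Tg libraries. The groups lay apart, at means of 4.18% ± 0.880 (SD, n = 3) and 1.91% ± 0.383 (SD, n = 4). The two-sided exact permutation test gave p = 0.0286, the smallest that 35 splits of 7 libraries allow, and an adjusted p of 0.0857 over the 3 ratios compared. Heavy chain reads per B2m read were 1.57, 2.68 and 2.55 in WT and 1.64, 1.78, 2.02 and 1.56 in IL5-Tg libraries (exact permutation p = 0.229, adjusted p = 0.343). H2-K1 reads per H2-D1 read were 1.07 ± 0.183 (SD, n = 3) and 1.10 ± 0.0725 (SD, n = 4; exact permutation p = 0.743). The groups lay apart for the H2-Q4 share alone, which did not pass after adjustment. H2-K1 per H2-D1 was the ratio without a stable direction, since its difference of 0.038 became -0.063 without WT replicate 2.

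**Figure D3:**
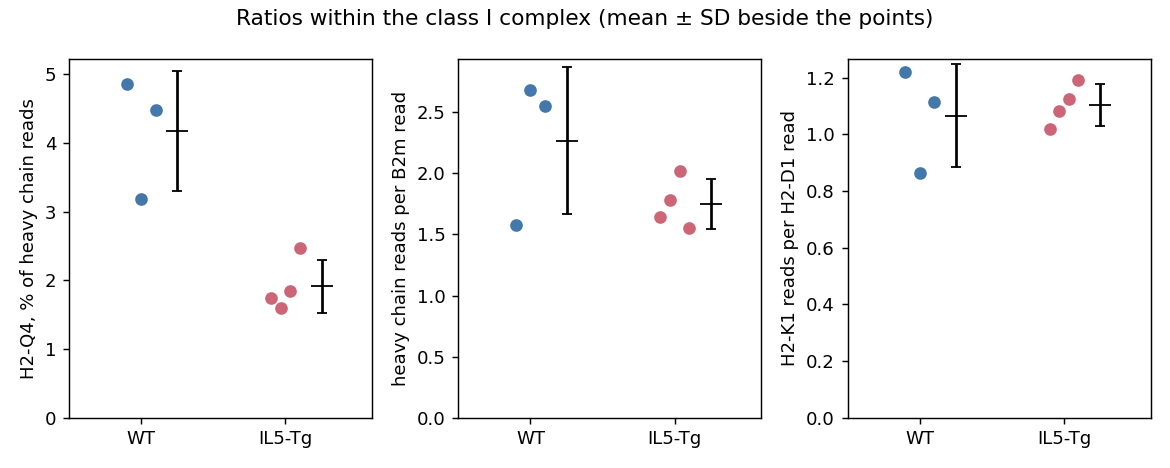
H2-Q4 as a percent of the reads of 7 heavy chains, heavy chain reads per B2m read, and H2-K1 reads per H2-D1 read, with 1 point per library and the mean ± SD beside the points (3 WT, 4 IL5-Tg). Only the H2-Q4 share separates the groups, at 3.18% to 4.86% and 1.59% to 2.47%.

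Tap1, a subunit of the peptide transporter, lies on the plus strand of chromosome 17, at 34187553 to 34197225. It was at 128, 288 and 338 CPM in WT and at 276, 390, 184 and 174 CPM in IL5-Tg libraries. WT replicate 1 was the lowest library and IL5-Tg replicate 2 the highest, and the log2 fold change was 0.03 ± 0.39 (SE; by edgeR, adjusted p = 0.991). Tapbp, at 33915899 to 33929292 on the plus strand of the same chromosome, was at 407, 462 and 661 CPM in WT and at 430, 541, 284 and 361 CPM in IL5-Tg libraries. Its log2 fold change was -0.34 ± 0.29 (SE; by edgeR, adjusted p = 0.841).

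Further genes of peptide supply and folding gave no call. With 0.41% of all tested genes called, 0 calls in a short list says little about that list. The same applies to the other lists here. Of 10 other peptide loading and folding genes of the endoplasmic reticulum 0 passed, with a median log2 fold change of -0.02. Tap2, the partner of Tap1, was at 253 ± 114 CPM in WT and 249 ± 56.7 CPM in IL5-Tg libraries (SD, n = 3 and 4; log2 fold change -0.03, by edgeR, adjusted p = 0.991). The smallest p in that list belonged to the glucosidase subunit Ganab, at 0.31, and the chaperone calnexin, Canx, at -0.25 (by edgeR, adjusted p = 0.821 and 0.874). Of 7 immunoproteasome and activator genes 0 passed, and their median was -0.11. The immunoproteasome subunits Psmb8 and Psmb9 were at 506 ± 163 and 94.8 ± 33.4 CPM in WT and 469 ± 128 and 96.9 ± 22.3 CPM in IL5-Tg libraries (SD, n = 3 and 4). Psmb10, the third catalytic subunit, had a log2 fold change of -0.33, and the activator subunit Psme2 one of -0.22 (by edgeR, adjusted p = 0.883 and 0.894).

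Of 13 tested regulators of class I transcription 0 passed, against 0.41% of all tested genes, and their median log2 fold change was -0.23. Nlrc5, which encodes the class I transactivator, was at 10.5, 18.6 and 37.8 CPM in WT and at 12.4, 15.7, 7.94 and 13.8 CPM in IL5-Tg libraries (log2 fold change -0.84 ± 0.44 SE, by edgeR, adjusted p = 0.653). Without WT replicate 3 its log2 fold change was -0.20. Irf1 had a log2 fold change of -0.59 ± 0.29 (SE; by edgeR, adjusted p = 0.616). Creb1, which encodes a factor that binds cAMP response elements, had groups that lay apart, at 56.6 to 102 and 24.5 to 41.7 CPM, but its log2 fold change of -1.28 ± 0.29 did not pass (SE; by edgeR, adjusted p = 0.133; by DESeq2, adjusted p = 0.0308). In the list of interferon receptors and signalling genes 1 of 11 passed, the feedback inhibitor Socs1, which rose to 68.4 ± 14.4 CPM (SD, n = 4) in IL5-Tg from 18.3 ± 1.62 CPM (SD, n = 3) in WT libraries (log2 fold change 1.90, by edgeR, adjusted p = 0.0165), against 0.338% of all tested genes called higher. Socs1 did not pass without WT replicate 1, IL5-Tg replicate 2 or IL5-Tg replicate 3 (by edgeR, adjusted p = 0.0950, 0.0844 and 0.0643), or by limma-voom (adjusted p = 0.131).

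Interferon response genes varied among libraries of the same group, and none was called between genotypes. Of 20 tested 0 passed, against 0.41% of all tested genes, with a median log2 fold change of -0.23. The smallest p belonged to the chemokine Cxcl10, at -0.93, and to Ifit2, at 0.96 (by edgeR, adjusted p = 0.743 and 0.744). Ifit2 was at 0.27 without IL5-Tg replicate 4 and at 0.30 by limma-voom. Irf7 was at 136, 338 and 368 CPM in WT and at 240, 333, 52.6 and 201 CPM in IL5-Tg libraries. WT replicate 1 was the lowest WT library and IL5-Tg replicate 3 the lowest IL5-Tg library in 16 of the 20 genes, against 5.46% of all tested genes. Both of these libraries have titles that start with 82. H2-T22, H2-T23 and Tapbp were lowest in the same libraries of each group, whereas H2-Q4 was lowest in WT replicate 2. This pattern was noticed in the values and was not tested.

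**Figure D4:**
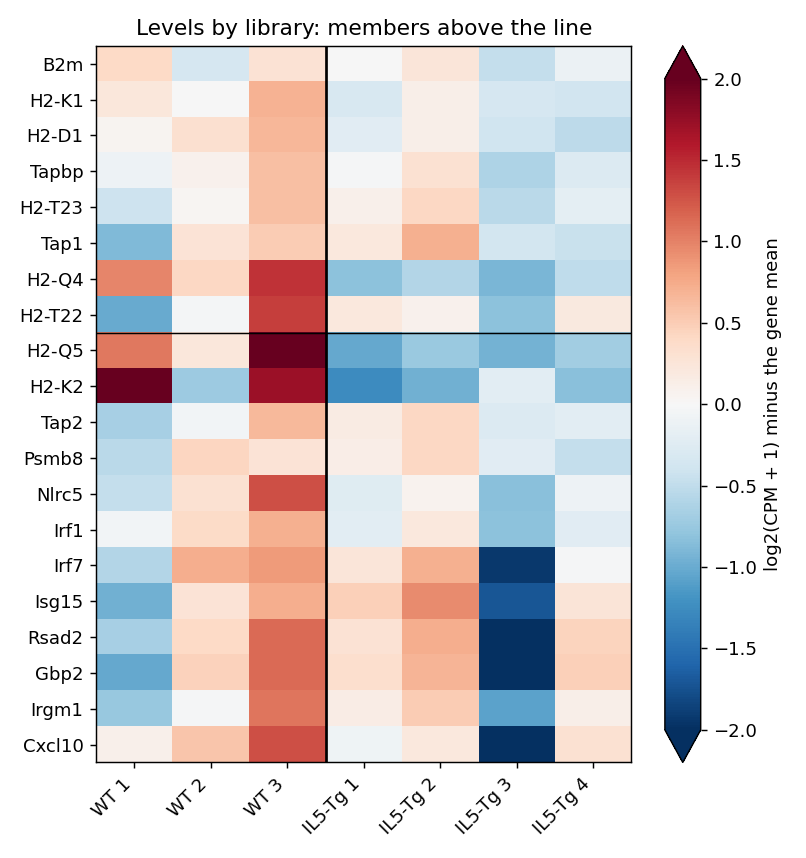
Log2(CPM + 1) minus the mean of the gene over 7 libraries, for the 8 tested members above the horizontal line and related genes below it; red is above and blue below the mean, and the colours end at 2 and -2. H2-Q4 is above its mean in the 3 WT libraries and below it in the 4 IL5-Tg libraries, while interferon response genes such as Irf7 are lowest in IL5-Tg replicate 3, at 52.6 CPM.

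Receptors of class I and class II genes were set beside these values. Of 5 tested receptors of class I 0 passed, against 0.41% of all tested genes. Pirb, the paired inhibitory receptor that binds class I on myeloid cells, was at 375 ± 68.3 and 289 ± 53.0 CPM in WT and IL5-Tg libraries (SD, n = 3 and 4; log2 fold change -0.38, by edgeR, adjusted p = 0.754), and its activating relative Pira2 had a log2 fold change of -0.54 (by edgeR, adjusted p = 0.854). Of 10 class II genes 0 passed, and their median log2 fold change was 0.19, where that of the class I members was -0.44. The invariant chain gene Cd74 had a log2 fold change of 0.50 (by edgeR, adjusted p = 0.799). H2-Oa, whose product regulates class II loading, was at 28.5, 46.8 and 57.2 CPM in WT and at 22.6, 19.1, 17.7 and 12.2 CPM in IL5-Tg libraries, and did not pass (log2 fold change -1.30, by edgeR, adjusted p = 0.183). The difference between these lists and the class I genes was not tested.

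Of the genes around H2-Q4, none but H2-Q4 was called. The 75 tested genes whose start lay within 1 Mb of that of H2-Q4 had a median log2 fold change of -0.09, with 43 of them below 0. Apart from H2-Q4 itself, groups lay apart and lower in IL5-Tg libraries for 6 of 74, or 8.11%, against 4.6% of all tested genes. An unadjusted p under 0.05 with a lower level was found for 7 of the 74, against 5.54% of all tested genes (edgeR). H2-D1, 117 kb before H2-Q4, and H2-T23, 650 kb beyond it, had the values given above.

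**Figure D5:**
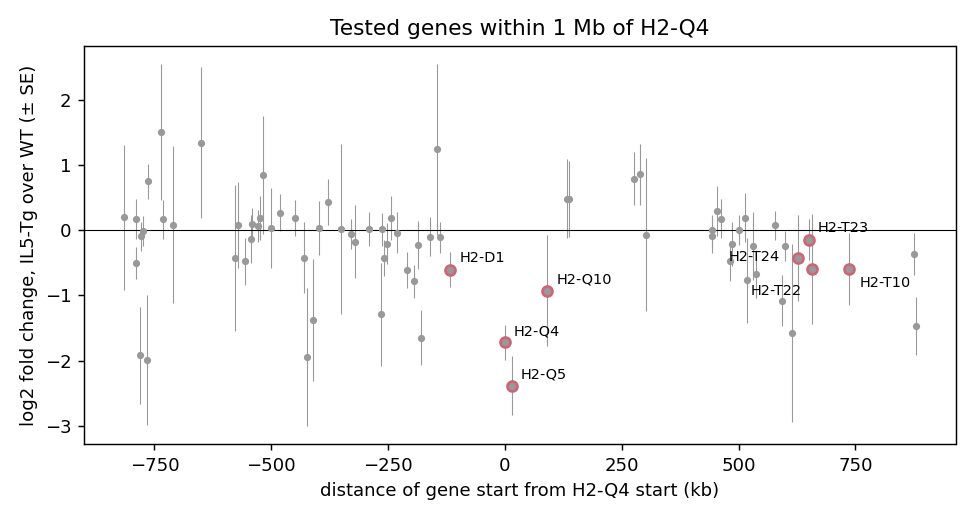
Log2 fold change of IL5-Tg over WT with its SE (edgeR) against the distance of each gene's start from that of H2-Q4, in kb, for the 75 tested genes within 1 Mb; class I genes are red and named. H2-Q4 and H2-Q5 lie at -1.72 and -2.39, and the median of the 75 genes is -0.09.

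Some genes used as markers of other cells were lower in IL5-Tg libraries, as H2-Q4 was. The 9 neutrophil markers summed to 9296 to 10492 CPM in WT and 2530 to 4295 CPM in IL5-Tg libraries, most of it from Retnlg, at 8849 to 10302 and 2434 to 4224 CPM. Of the 8 neutrophil markers tested, 6 had a log2 fold change below 0, with groups apart for Retnlg and Csf3r, and Retnlg alone was called lower (by edgeR, adjusted p = 0.0416, and 0.0400 to 0.272 with each library left out). The granule gene Ngp went the other way, at 0.121 CPM in WT and 28.3 CPM in IL5-Tg libraries on average, and was called higher (by edgeR, adjusted p = 0.00311). S100a8 was at 157, 65.1 and 2.36 CPM in WT and at 5.43 to 10.8 CPM in IL5-Tg libraries. S100a9 was at 171, 43.2 and 5.77 CPM in WT and at 4.78 to 10.3 CPM in IL5-Tg libraries. Their groups overlapped, and both were lowest among WT libraries in replicate 3, where Retnlg was at 9838 CPM. The sort was set to leave out Ly6G-positive cells, which neutrophils are.

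The 8 mast cell and basophil markers summed to 226 to 512 CPM in WT and 129 to 143 CPM in IL5-Tg libraries, and the histamine enzyme gene Hdc was the most abundant, at 134 to 391 and 37.5 to 66.9 CPM. Of the 6 tested, 5 had a log2 fold change below 0, and the median was -2.08. Groups lay apart and lower for Hdc and for the protease genes Cpa3, Tpsb2 and Mcpt4, and Hdc was called lower (by edgeR, adjusted p = 0.0236, and 0.0107 to 0.121 with each library left out). Gata2, a transcription factor gene, had groups apart in the other direction, at means of 22.1 and 65.7 CPM. Without its most abundant gene each sum overlapped between groups, at 44.0 to 447 and 66.6 to 96.1 CPM for neutrophil markers and 77.9 to 121 and 73.5 to 93.6 CPM for mast cell and basophil markers.

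Muscle fibre markers moved in the direction opposite to H2-Q4, with sums of 122 to 579 CPM in WT and 504 to 1523 CPM in IL5-Tg libraries. The log2 fold change was above 0 for 9 of the 9, with a median of 1.55, groups lay apart for 3 of them, and 0 were called. The part of any of these cell types in the difference of H2-Q4 was not tested. With the level of macrophage and monocyte markers as a covariate, H2-Q4 had a log2 fold change of -1.43 (by edgeR, adjusted p = 0.0161). That covariate includes Adgre1, highest in WT replicate 3, where C1qa, C1qb and Cd68 were lowest, so it is not a clean measure of macrophages.

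The genes whose pattern over the 7 libraries was most like that of H2-Q4 were Prr7, the chemokine gene Ccl9 and the stress gene Gadd45b. They were picked by their values in these same libraries, so their direction and calls are no support for the call of H2-Q4. Likeness was the root mean square difference of log2(CPM + 1) after removing each gene's mean, over 7916 tested genes with a mean of at least 10 CPM, and it was 0.17, 0.21 and 0.22 for these genes. Prr7 fell to 48.7 ± 5.97 CPM in IL5-Tg from 149 ± 43.6 CPM in WT libraries, and Ccl9 to 828 ± 129 from 2324 ± 408 CPM (SD, n = 4 and 3; by edgeR, adjusted p = 0.0278 and 0.0404). Like H2-Q4, neither passed without WT replicate 1 (by edgeR, adjusted p = 0.115 and 0.131) or without any one of the IL5-Tg libraries (by edgeR, adjusted p of 0.101 to 0.186 and 0.101 to 0.272). Both were also lost with the title start as a block (by edgeR, adjusted p = 0.226 and 0.417), and Ccl9 by limma-voom (adjusted p = 0.0736). Gadd45b had a log2 fold change of -1.49 and did not pass (by edgeR, adjusted p = 0.0834), but it did by DESeq2, without a count filter and with counts divided by the most common low count (adjusted p = 0.00296, 0.0384 and 0.0359). The genes most like B2m were 2610002M06Rik, the adhesion receptor gene Cd44 and the thioesterase gene Acot9, at differences of 0.11, 0.11 and 0.12, with log2 fold changes of 0.0042, -0.24 and -0.07 that did not pass (by edgeR, adjusted p = 0.997, 0.887 and 0.970).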

How the data were processed

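RNA of cells sorted into RNAzol was made into stranded mRNA libraries and sequenced as short paired reads, per the labels' protocols. The authors deposited raw read counts per gene symbol, without normalization, as the whole numbers and differing totals show. STAR, Bowtie and bcl2fastq 2.20 are named with the build mm10, per the submitters' processing notes. The sources used here do not give their roles, the annotation, the counting program or its strand setting. The 2 rows that name no gene were left out. The no feature row held 16.5%, 15.6% and 18.2% of the WT libraries. It held 9.15%, 12.2%, 9.78% and 13.0% of the IL5-Tg libraries, so the groups lay apart. The ambiguous row held 0.750% to 0.943% of each library. What this difference does to the levels of genes was not tested.

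Replicate numbers follow accession order and only name a library. The chi-square statistic between counts of 2 libraries of a group was 27.0 to 152 per gene, more than counting error alone gives. It cannot tell separate preparations of the same sample from separate samples, so technical repeats were not excluded. Genes were tested in R 4.3.3 with edgeR 4.0.16 by its quasi-likelihood test (TMM, filterByExpr, robust, genotype as the only term, 7 libraries) with Benjamini-Hochberg adjustment. SE came from the fold change and F. CPM uses TMM-scaled sizes. The procedure was tested on simulated counts, where it recovered 2% of 50 genes changed 2-fold and 44% of 50 genes changed 4-fold. Alternatives were RLE and upper-quartile scaling, DESeq2 1.42.0, limma 3.58.1 voom with quality weights, no robust estimation, no count filter, at least 1 CPM in 3 libraries, counts divided by the most common low count (centre of the window of counts holding most genes), a macrophage covariate, a block for the title start, and each library left out in turn.

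The members, lists and rules were chosen with earlier results of these data known. Named were all members, every called gene of each pathway list or otherwise the 2 with the smallest p, 6 genes by name (1 is not reported here), the 3 genes most like B2m and H2-Q4, the most abundant gene of marker lists and Il5. Irf7, Pax5 and other genes drawn in the plots were chosen after their values were seen. So were the marker genes Csf3r, Ngp, S100a8, S100a9, Cpa3, Tpsb2, Mcpt4, Gata2, C1qa, C1qb, Cd68, Prg2, Epx, Ccr3 and Il5ra. Positions and transcripts are GENCODE M21 on mm10, matched by symbol. Promoters are RefSeq.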

Additional observations from a re-analysis of the deposited data

Results flagged for a closer look

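Of 38 values checked in the 4 IL5-Tg libraries, 2 had a library far from the others of the group, where chance alone gives about 1 in 20. H2-K1 was at 1470 CPM in IL5-Tg replicate 2, against 1044 to 1089 CPM in the other IL5-Tg libraries, a gap of 0.895 of the group's range. H2-T22 was at 1.17 CPM in IL5-Tg replicate 3, from 16 reads, against 3.07 to 3.47 CPM in the others, a gap of 0.8295 of the range, just past the limit used.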

How the results depend on the processing

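The number of genes called over all genes was 51 (42 higher and 9 lower in IL5-Tg libraries), and 224 by DESeq2 (145 and 79), 22 by limma-voom, 100 with counts divided by the most common low count (72 and 28), 110 with the macrophage covariate and 16 to 97 when each library was left out (16 without IL5-Tg replicate 1 or 2, 17 without 3, 30 without 4, 19 without WT replicate 1, 61 without 2, of which 31 were lower, and 97 without 3). The number of class I members called was 1, also under those 4 settings, and 0 with the title start as a replicate block and 0 to 1 when each library was left out. No paired analysis by replicate number was possible because the labels give none. The title start block, which joins WT replicate 1 with IL5-Tg replicate 3 and WT replicate 2 with IL5-Tg replicate 4, called 52 genes. Deviations from the group means correlated at 0.20 and -0.11 in these pairs, over genes of at least 10 CPM. In pairs of a WT and an IL5-Tg library with different title starts they correlated at -0.52 to 0.65.

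Signs turned for 9 genes, none of which passed under any setting. By limma-voom the values were 0.33 for H2-T22, 0.035 for Pira2, 0.20 for Tap2, 0.012 for Psmb8 and -0.10 for 2610002M06Rik. With the macrophage covariate they were 0.39 for H2-T22, 0.14 for H2-T23, 0.33 for Tap2 and 0.15 for Acot9. With the title start block they were 0.33 for H2-T22, -0.10 for Tap1, 0.12 for Tap2, -0.082 for Psmb9 and -0.10 for 2610002M06Rik. Tap2 was at 0.0029 with upper-quartile scaling and 2610002M06Rik at -0.0024 with the CPM filter. Leaving out each library gave -1.07 to 0.63 for H2-T22, -0.35 to 0.18 for H2-T23, -0.28 to 0.32 for Tap1, -0.28 to 0.40 for Tap2, -0.34 to 0.10 for Psmb8, -0.23 to 0.25 for Psmb9, -0.15 to 0.13 for 2610002M06Rik and -0.23 to 0.13 for Acot9. The difference in H2-K1 reads per H2-D1 read ranged from -0.063 to 0.11. The causes were not tested. A single ratio with groups apart could not pass: it reaches at best an adjusted p of 0.0857 over the 3 ratios with 7 libraries, and with 1 library left out the smallest exact p is already above the threshold. The log2 fold changes of H2-K1 and H2-D1 had an SE of 0.27 and 0.26, and an equal level in both genotypes is not shown.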
